A study of Ovis aries with 16 samples.

Results

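By the annotation of the sheep array, the respiratory chain of mitochondria was represented by 8 genes, read by 9 of its 15008 non-control probes. The probes were taken by name and description alone: the array's gene name began with NDUF, SDH, UQCR, ATP5 or a numbered COX subunit prefix, or the description mentioned NADH dehydrogenase, cytochrome c oxidase, ubiquinol-cytochrome or ATP synthase. The name admitted 4 probes, the description 7, and both of these 2. All 9 were bright enough on at least 3 arrays to be tested with 12249 probes in all. They comprised 2 probes of complex I, 1 of complex IV, 1 of an assembly factor of complex IV and 5 of complex V. No probe of complex II or III and none of the mitochondrial genome met the rule, so the genes below are all encoded in the nucleus. Only 1656 of the 15008 probes could be given a gene symbol, so unnamed probes may read further genes of the chain.

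Complex I takes electrons from NADH, and complex IV, cytochrome c oxidase, passes them to oxygen. The protons that the chain moves across the inner membrane return through complex V, the ATP synthase, whose membrane ring is built from copies of subunit c. Neurons draw most of their ATP from this route and are among the cells most sensitive to a shortage of oxygen. Glycolysis with lactate formation supplies ATP without oxygen.

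The tissue was hypothalamus of late-gestation fetal sheep carried by chronically catheterized ewes. Fetuses underwent 30 min of normoxia after saline (NC, n = 3) or after ketamine (NK, n = 4), or 30 min of hypoxia, made by lowering the oxygen in the ewe's breath, after saline (HC, n = 5) or after ketamine (HK, n = 4). Ketamine, an anesthetic and antagonist of NMDA-type glutamate receptors, was injected intravenously. Tissue was taken 24 h after the onset of the stimulus, so all groups had 23.5 h of normoxia before collection, and each sample was hybridized to an array of its own. The questions were how the transcripts stood a day after hypoxia and whether ketamine altered that. The samples were not sorted cells, so fewer cells of a type and less RNA per cell cannot be told apart. Of 17 hypothalamic peptide genes sought, 9 had probes on the array (AGRP, GNRH1, NPY, OXT, PMCH, POMC, SST, TAC1 and TAC3), and each of their 17 probes was well above background on at least 15 of the 16 arrays. No probe bore a gene symbol from the neuron or oligodendrocyte lists, though probes without a symbol may read such genes.

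The probes are 60 bases long, and their sequences show which stretch of each transcript was read. They are printed 5′ to 3′ as the array files give them, and 5 of them carry capitals for the landmark that places them. Only the last 30 bases are given of probes that end at a poly(A) signal. Probe 1 of ATP5MC1, which reaches from the coding sequence into the 3′ untranslated end, is given whole.
NDUFA12: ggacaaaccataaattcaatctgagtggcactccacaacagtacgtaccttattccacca
COX15: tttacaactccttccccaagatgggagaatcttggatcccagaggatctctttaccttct
ATP5MC1, probe 1: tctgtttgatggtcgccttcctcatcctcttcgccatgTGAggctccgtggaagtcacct
ATP5MC1, probe 2, last 30 bases: taccATTAAAcacaatgtttctctaaaaaa
ATP5MC2, last 30 bases: cagaaggaagacaAATAAAtactgtattaa
ATP5PO, last 30 bases: aacttggagcgacAATAAAatgcttcctga
ATP5PD: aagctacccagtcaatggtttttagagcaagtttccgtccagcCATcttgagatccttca

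Probe 1 of ATP5MC1 crossed the end of the coding sequence, with the stop codon TGA in capitals after 12 codons free of stops in the same frame. Probe 2 of the same gene, which starts 87 bases further along the transcript, ended near ATTAAA, and the probes of ATP5MC2 and ATP5PO ended near AATAAA. These are the usual signals for adding the poly(A) tail. Searched on the printed strand only, AATAAA was present in 845 of all 15008 probes (5.63%) and ATTAAA in 394 (2.63%). The ATP5PD probe was designed on an expressed sequence tag of unstated orientation. Its capitals CAT read ATG on the opposite strand, and an ATG opened 15 codons without a stop on either strand. The open frames alone therefore did not settle which strand it read, and no protein sequence was compared. The probe may lie opposite to the coding strand, in which case its values are not levels of the ATP5PD transcript. COX5A was also placed by an expressed sequence tag. The second complex I probe carried only the cluster name TC14921 and a description as the bovine NDUFA2 subunit, and is called TC14921 here.

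None of the 9 probes was called in any of the 6 comparisons (limma, unadjusted p under 0.05, which is what a call means here). The adjusted p beside a value is from limma, with the Benjamini-Hochberg method applied to the 12249 probes. For the 6 probes that were well above background on all 16 arrays and saturated on none, in HC against NC the 95% intervals lay between -0.39 and 0.39 on the log2 scale, which is 0.764- to 1.31-fold. In HK against HC they lay between -0.29 and 0.37, or 0.819- to 1.29-fold. The upper end in HC against NC and the lower end in HK against HC were those of the ATP5PD probe, whose strand is unsettled. Changes that lie within a probe's own interval are not excluded with this number of arrays. COX5A had a far wider interval, -0.84 to 1.34 in HC against NC.

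Complex V held 5 of the 9 probes. ATP5MC1 and ATP5MC2 encode the same ring subunit c from separate genes, with different targeting sequences that are cut off on import. For probe 1 of ATP5MC1, the log2 level of the NC arrays was 5.70, 5.68 and 5.55, that of the NK arrays 5.77, 5.58, 5.71 and 5.64, that of the HC arrays 5.73, 5.45, 5.52, 5.58 and 5.65 and that of the HK arrays 5.79, 5.69, 5.69 and 5.68. For probe 2 of ATP5MC1, the log2 level of the NC arrays was 5.84, 5.97 and 5.67, that of the NK arrays 5.94, 5.84, 5.68 and 5.63, that of the HC arrays 5.91, 5.65, 5.49, 5.61 and 5.74 and that of the HK arrays 5.82, 5.92, 5.74 and 5.82. Here a log2 level is the processed signal over the 75th percentile of its array, so that levels of different probes are not comparable. The groups overlapped at both probes, and HC held the lowest array of each (HC2 for probe 1 and HC3 for probe 2).

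ATP5MC1 was the member whose signal met the upper limit of the scanner. Probe 1 was saturated on 9 arrays and probe 2 on 12, whereas no other member was saturated on any. All 3 NC arrays were saturated at probe 1 and all 4 NK arrays at probe 2, so those group means are lower bounds. In the remaining groups, HC and HK included, 1 to 3 arrays were saturated at each probe, so their means are lower bounds too. No fold is therefore given for ATP5MC1, and its differences below keep saturated spots at their measured value. The unscaled intensity of probe 1 ran from 66226 to 73876, a 1.12-fold range, while the 75th percentile it was divided by ran from 1256 (HC1) to 1609 (HC2), a 1.28-fold range.

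Group means of probe 1 were NC 5.64 ± 0.08, NK 5.67 ± 0.08, HC 5.59 ± 0.11 and HK 5.71 ± 0.05 (SD). Probe 1 differed by -0.05 in HC against NC (SE 0.08, adjusted p = 0.888) and by 0.12 in HK against HC (SE 0.07, adjusted p = 0.754). Probe 2 gave -0.15 (SE 0.11, adjusted p = 0.778) and 0.15 (SE 0.10, adjusted p = 0.785). The probes had the same sign in both comparisons. Without 1 array at a time, probe 1 ranged from -0.10 (without NC3) to -0.02 (without HC2) and probe 2 from -0.23 (without NC3) to -0.08 (without NC2) in HC against NC. Without HC1, whose levels of 5.73 and 5.91 were the highest of the HC arrays, HK lay above HC at both probes, by 0.16 (adjusted p = 0.709) and 0.20 (adjusted p = 0.709). Both were called only when this array was left out. With the saturated spots left out, HK differed from HC by 0.17 at probe 1 (adjusted p = 0.831) and by 0.12 at probe 2 (adjusted p = 0.965).

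For ATP5MC2, the log2 level of the NC arrays was 4.80, 4.87 and 4.75, that of the NK arrays 4.72, 4.66, 4.90 and 4.86, that of the HC arrays 4.75, 4.53, 4.69, 4.82 and 4.90 and that of the HK arrays 4.73, 4.67, 5.05 and 5.08. HK3 and HK4 were the highest arrays of all and HC2 the lowest, and the HK arrays fell into a lower pair on slide 1 and a higher pair on slide 2. ATP5MC2 differed by -0.07 in HC against NC (SE 0.11, adjusted p = 0.904) and by 0.14 in HK against HC (SE 0.10, adjusted p = 0.802). Without 1 array at a time these ranged from -0.11 (without HC5) to -0.01 (without HC2) and from 0.08 (without HK4) to 0.21 (without HK2). It was called in HK against HC only on the log2 values that the authors deposited, at 0.15 (adjusted p = 0.674).

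ATP5PO encodes OSCP, the subunit that joins the catalytic head of the synthase to its stalk. For ATP5PO, the log2 level of the NC arrays was 3.41, 3.42 and 3.48, that of the NK arrays 3.36, 3.35, 3.56 and 3.49, that of the HC arrays 3.39, 3.02, 3.45, 3.37 and 3.60 and that of the HK arrays 3.36, 3.36, 3.61 and 3.53. HC2 was the lowest array by a wide gap, and the other 15 arrays spanned 3.35 to 3.61. The difference was -0.07 in HC against NC (SE 0.11) and 0.10 in HK against HC (SE 0.10). Without HC2 it was 0.02 and 0.01, so most of both differences came from that array. ATP5PD encodes subunit d of the peripheral stalk. The log2 levels of its probe, whose strand is unsettled, ran from -1.23 (HC2) to -0.68 (HC5), and HK1 at -1.17 was next to the bottom. The difference of this probe in HC against NC was 0.11 (SE 0.13), and 0.21 without HC2 (adjusted p = 0.812).

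In complex I, NDUFA12 encodes an accessory subunit of the arm that binds NADH. For NDUFA12, the log2 level of the NC arrays was 3.18, 3.11 and 3.44, that of the NK arrays 3.22, 3.21, 3.29 and 3.39, that of the HC arrays 3.26, 2.75, 3.18, 3.32 and 3.31 and that of the HK arrays 2.90, 3.16, 3.44 and 3.28. The lowest arrays were HC2 and HK1, both after hypoxia and both on slide 1, and the remaining hypoxia arrays lay within the range of the normoxia arrays. Means were NC 3.24 ± 0.17, NK 3.28 ± 0.08, HC 3.16 ± 0.24 and HK 3.19 ± 0.23 (SD). The difference was -0.08 in HC against NC (SE 0.14, adjusted p = 0.913), and -0.09 in HK against NK (SE 0.14, adjusted p = 0.927). Both turned sign when 1 array was left out: the former ranged from -0.15 (without NC2) to 0.02 (without HC2) and the latter from -0.17 (without HK3) to 0.01 (without HK1). For TC14921, the log2 level of the NC arrays was 4.15, 4.01 and 4.04, that of the NK arrays 4.21, 4.10, 4.11 and 3.95, that of the HC arrays 4.10, 3.81, 4.16, 3.85 and 4.09 and that of the HK arrays 3.95, 4.03, 4.31 and 4.12. HC2 and HC4 were its lowest arrays and HK3 its highest, with all groups overlapping. TC14921 differed by -0.07 in HC against NC (SE 0.11) and by 0.10 in HK against HC (SE 0.10), ranging from -0.11 (without HC3) to -0.02 (without HC2) and from 0.03 (without HK3) to 0.15 (without HK1) when 1 array was left out.

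In complex IV, COX15 makes the heme A that the oxidase carries, and is not itself a subunit. For COX15, the log2 level of the NC arrays was -2.59, -2.62 and -2.33, that of the NK arrays -2.26, -2.56, -2.72 and -2.43, that of the HC arrays -2.60, -2.50, -2.46, -2.63 and -2.87 and that of the HK arrays -2.39, -2.53, -2.70 and -2.41. NK1 was the highest array and HC5 the lowest, and no group stood apart. It differed by -0.10 in HC against NC (SE 0.12) and by 0.11 in HK against HC (SE 0.11). When 1 array was left out these ranged from -0.15 (without NC2) to -0.01 (without NC3) and from 0.04 (without HC5) to 0.17 (without HK3). COX5A, a subunit of the oxidase itself, was dim, with unscaled intensities from 13.1 to 67.4. It was well above background on 11 of 16 arrays: 1 of 3 in NC, 3 of 4 in NK, 4 of 5 in HC and 3 of 4 in HK. Its log2 levels spread from -6.68 (NC2) to -4.50 (NC3), both of them normoxia controls. Its difference of 0.25 in HC against NC (SE 0.51) therefore carried little information.

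**Figure D1:**
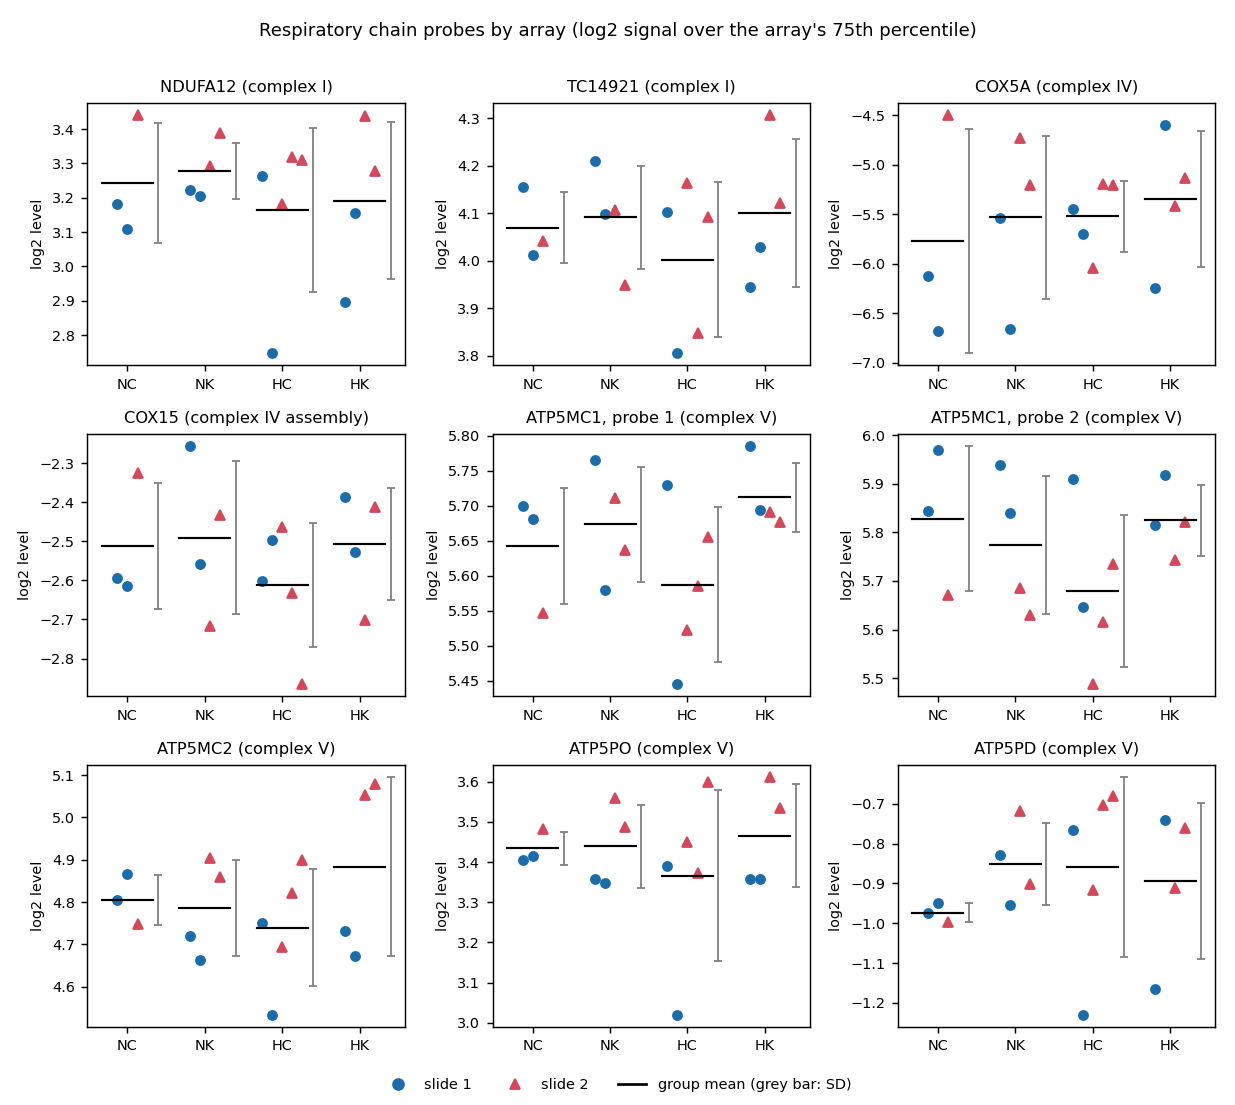
Log2 level of the 9 respiratory chain probes on each of the 16 arrays, by group, with circles for slide 1, triangles for slide 2, a black line for the group mean and a grey bar for its SD. Each panel has its own axis, the groups overlap in every panel, and HC2 is the lowest point in 6 of the 9.

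With only 9 probes, a count of 0 calls cannot be told apart from the general rate of calls on the array. In HC against NC, 0 of 9 were called where 7.99% of all tested probes were. Their median difference was -0.07, beside -0.02 over all tested probes, and 7 of 9 lay below 0 where 54.4% of all probes did. Both partly saturated ATP5MC1 probes were among the 7. Without HC2 the median was -0.01 and 5 of 9 lay below 0. Their median absolute difference was 0.0794, against 0.138 over all probes. In HK against HC, 0 of 9 were called where 6.9% of all tested probes were. Here 8 of 9 were higher in HK, where 56.2% of all probes were, and the median was 0.11 beside 0.03. The exception was the ATP5PD probe at -0.04, and at 0.05 without HK1. Both partly saturated ATP5MC1 probes and the dim COX5A (0.17, SE 0.47) were among the 8. Without HC2 7 of 9 were higher, with NDUFA12 at -0.08 and ATP5PO at 0.01. Over all alternatives 7 to 9 of the members fitted were higher in HK, with 7 of 9 under quantile normalization and 9 of 9 on the deposited values. The smallest adjusted p among the 9 was 0.754 (limma with Benjamini-Hochberg adjustment).

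In HK against NK, 0 of 9 were called where 8.74% of all tested probes were, with differences from -0.09 (NDUFA12) to 0.18 (COX5A). For hypoxia averaged over both ketamine arms the count was 0 of 9 against 13.1%, and the 6 bright probes that were never saturated differed by -0.08 to 0.04. Ketamine without hypoxia, NK against NC, gave 0 of 9 against 1.04%, with -0.02 to 0.12 over the same 6. The upper end of both ranges was that of the ATP5PD probe, whose strand is unsettled. The interaction, the ketamine difference after hypoxia minus that after normoxia, gave 0 of 9 against 3.85%. Among those 6 it ran from -0.16 at the ATP5PD probe to 0.16 at ATP5MC2 (SE 0.16, adjusted p = 0.992). The members' arrays did not separate in any comparison of a pair of groups, where 4.76% (HC against NC), 5.5% (HK against NK), 2.25% (NK against NC) and 1.49% (HK against HC) of all probes did. These comparisons share groups with one another and are not independent. After Benjamini-Hochberg adjustment 0 of 9 passed in every comparison, and over all 12249 probes 1 did, in HK against NK (0.00816%).

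**Figure D2:**
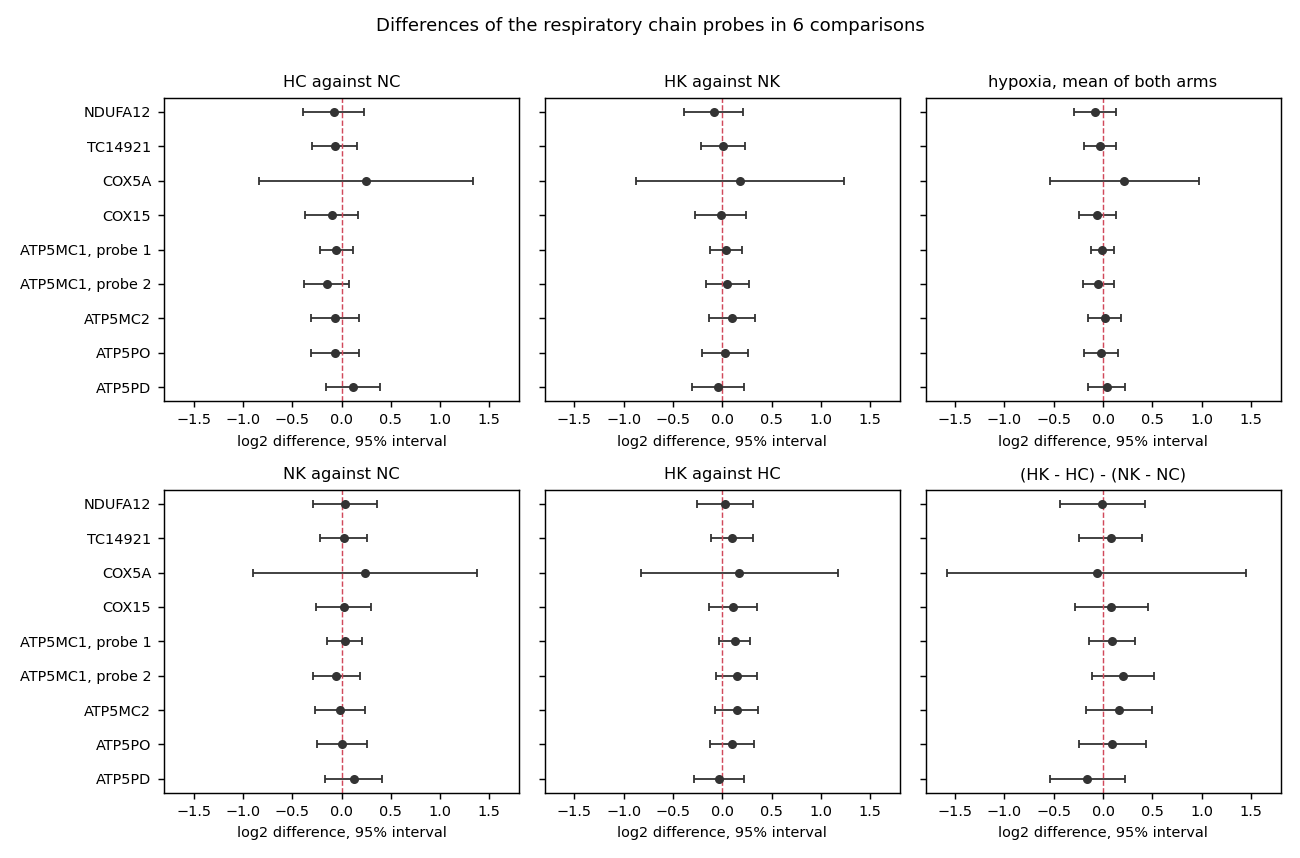
Log2 difference of each respiratory chain probe in the 6 comparisons, with points for limma's estimate, bars for its 95% interval and a dashed line at 0. Every interval crosses 0, and COX5A has the widest in each panel. The points of ATP5MC1 rest in part on saturated spots, on all arrays of NC at probe 1 and of NK at probe 2.

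Several members differed more between the slides than between the treatment groups. The slides held different fetuses, so a slide difference cannot be told apart from one between animals. The arrays were on 2 slides of 8, and each group had at least 1 array on each. Within groups, slide 2 lay above slide 1 at NDUFA12 by 0.25 (adjusted p = 0.0757), at ATP5PO by 0.20 (adjusted p = 0.0844), at ATP5MC2 by 0.18 (adjusted p = 0.126) and at COX5A by 0.69 (adjusted p = 0.238). It lay below slide 1 at probe 2 of ATP5MC1, by -0.17 (adjusted p = 0.105), where 12 of 16 arrays were saturated. These 5 of 9 members were called between slides, where 20.1% of all tested probes were. After Benjamini-Hochberg adjustment 0 of 9 passed, where 5.98% of all probes did. At all 5 the slide difference was larger than the range of the 4 group means, by 1.16 times at probe 2 of ATP5MC1 up to 2.21 times at NDUFA12. The remaining members were ATP5PD at 0.12, TC14921 at 0.04, COX15 at -0.05 and probe 1 of ATP5MC1 at -0.04.

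With the slide as a block still 0 of 9 members were called in each comparison. The smallest p in HK against HC was then that of ATP5MC2, with a difference of 0.16 (adjusted p = 0.639). Within slide 1 all 9 members were higher in HK than in HC and within slide 2 8 of 9 were. The members share the same arrays and the same scaling, so these counts and those above are not counts of independent observations. The size varied, from 0.06 on slide 1 to 0.26 on slide 2 at ATP5MC2, and from 0.15 to 0.10 at probe 1 of ATP5MC1. In HC against NC 2 of 9 were higher on slide 1 and 3 of 9 on slide 2, where NC had a single array.

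**Figure D3:**
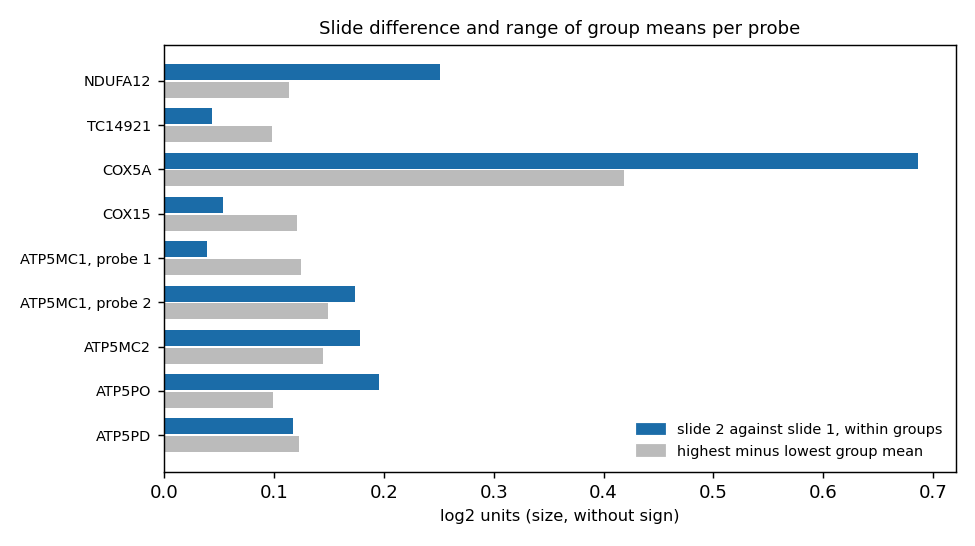
Size of the slide difference within groups (blue) beside the range of the 4 group means (grey) for each respiratory chain probe, in log2 units from 0. The blue bar is the longer at NDUFA12, COX5A, probe 2 of ATP5MC1, ATP5MC2 and ATP5PO.

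One fetus of the hypoxia group, HC2, carried much of the spread. It was the lowest of all 16 arrays at 6 of the 9 probes (NDUFA12, TC14921, probe 1 of ATP5MC1, ATP5MC2, ATP5PO and ATP5PD) and lay below the probe's own mean at 8, with a median deviation of -0.26. HC2 also had the highest 75th percentile of intensity, 1609, by which its values were divided. In the unscaled intensities it was the lowest array at 1 of 9 (ATP5PO). It was the lowest at 4 of 9 after quantile normalization, at 5 after background correction by normexp and at 4 on the deposited values, and NDUFA12, ATP5MC2, ATP5PO and ATP5PD were among them each time. HC2 was thus the lowest array at those 4 probes under each way of scaling the arrays to one another. Its position at the other probes depended on the choice.

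The spread of the members within groups was set against that of all tested probes, not of probes of like brightness. The residual SD was under the median of all tested probes (0.236) for 8 of the 9, from 0.087 for probe 1 of ATP5MC1 to 0.197 for NDUFA12, and was 0.738 for COX5A. For probe 1 of ATP5MC1 it stood at percentile 3.13 of all tested probes and for probe 2 at percentile 19.4, beside the saturation of both described above.

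Of the genes of glucose use and lactate, the other route to ATP, SLC2A3 and LDHA passed the unadjusted threshold on the same arrays, though not the adjusted one. Of 26 genes listed, 6 were tested by 10 probes (ALDOA, GAPDH, HK1, LDHA, SLC16A1 and SLC2A3), and 4 of the 10 probes, of 2 genes, were called in HC against NC, all higher, where 7.99% of all tested probes were called in either direction. They belonged to SLC2A3, the main glucose transporter of neurons, and LDHA, which turns pyruvate into lactate. Levels at probe 1 of SLC2A3 were 3.11 to 3.44 for NC, 3.29 to 3.39 for NK, 3.71 to 5.04 for HC and 3.59 to 4.05 for HK, with every hypoxia array above every normoxia array. The differences at its probes were 1.06 (SE 0.22, adjusted p = 0.296) and 0.93 (SE 0.22, adjusted p = 0.343) in HC against NC. In HK against HC SLC2A3 was lower, by -0.55 (adjusted p = 0.7) and -0.50 (adjusted p = 0.7). Without HK3 the differences in HK against HC were -0.47 and -0.40 and neither was called. Without HC1, HC2, HC3 or HK4 the second of them was not called either (-0.37, -0.44, -0.45 and -0.45). The first was also not called after normexp (-0.52) or on the deposited values (-0.52), and neither was called when only the groups compared were fitted.

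For LDHA the levels at probe 1 were NC 1.60 ± 0.13, NK 1.67 ± 0.19, HC 2.20 ± 0.49 and HK 2.14 ± 0.24 (mean ± SD), and HC2, HC3 and HK2 were the high arrays. LDHA differed by 0.60 and 0.61 at its probes in HC against NC (SE 0.23 and 0.26, adjusted p = 0.538 and 0.575). At probe 1 the difference was 0.58 without NC2, 0.55 without NC3 and 0.49 without HC2, and at probe 2 it was 0.64, 0.51 and 0.45 and without HC3 0.48, none of them called, nor was either probe when only the groups compared were fitted. HC2 was thus among the highest arrays for LDHA and, with the scaling to the 75th percentile, the lowest at 6 of the 9 respiratory chain probes. HC3, as high for LDHA, was the lowest at 1 of them.

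**Figure D4:**
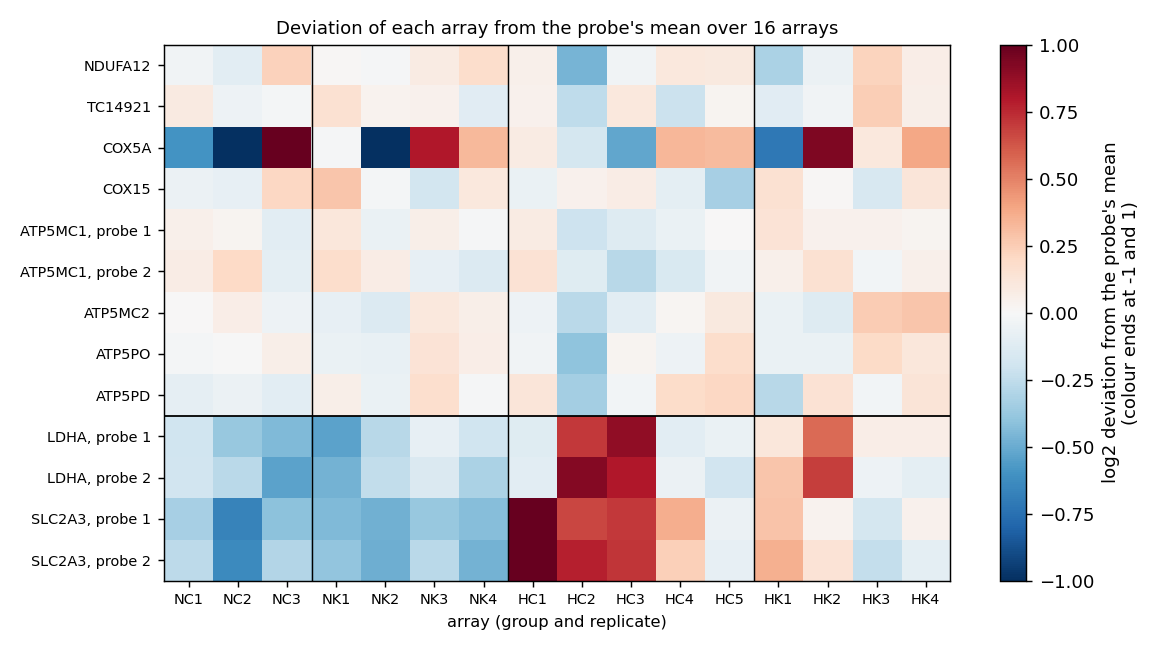
Log2 deviation of each array from the mean of its probe over 16 arrays, with respiratory chain probes above the line, LDHA and SLC2A3 below it, and colours that end at -1 and 1. HC2 is below the mean at 8 of 9 respiratory chain probes, and the HC columns are red for SLC2A3 except HC5.

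Carriers of the inner membrane and related proteins were tested by 9 probes of 8 genes (SLC25A4, SLC25A5, SLC25A6, SLC25A11, SLC25A20, SLC25A26, TSPO and VDAC1, of 19 listed). None of the 9 was called in HC against NC, 3 were called in HK against HC and 2 in HK against NK, all of them higher, where 7.99%, 6.9% and 8.74% of all tested probes were called in either direction. SLC25A26, which brings the methyl donor S-adenosylmethionine into mitochondria, had levels of -2.09 to -1.75 for NC, -2.11 to -1.98 for NK, -2.14 to -2.01 for HC and -1.93 to -1.59 for HK, and every HK array lay above every HC array. It differed by 0.25 in HK against HC (SE 0.08, adjusted p = 0.7) and by 0.23 in HK against NK (adjusted p = 0.472). The latter was 0.20 without NK2 and 0.15 without HK1, and then not called, nor was it called with the replicate number as a block. SLC25A11, the carrier of oxoglutarate and malate, differed by 0.19 in HK against HC (SE 0.08, adjusted p = 0.7), and by 0.17 without HC1, 0.18 without HK1 and 0.16 without HK3, when it was not called.

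SLC25A4, which exchanges ADP for the ATP made by complex V, differed by 0.20 in HK against HC (SE 0.09, adjusted p = 0.709). It was not called after quantile normalization (0.18), normexp (0.13) or on the deposited values (0.12), nor without HC2 (0.18), HC3 (0.16), HC4 (0.18), HK1 (0.21), HK2 (0.21) or HK3 (0.17), nor when only the groups compared were fitted. VDAC1, a pore of the outer membrane, differed by 0.24 in HK against NK (SE 0.10, adjusted p = 0.519), and by 0.17 without NK2, 0.22 without NK3, 0.23 without HK1 and 0.18 without HK3, when it was not called. The same held when only HK and NK were fitted. The single tested probe of the citric acid cycle list (IDH1) and the 4 probes of regulators of mitochondrial biogenesis (GABPA, NRF1 and PPARGC1A) were not called in any comparison. No probe bore a gene symbol from the lists of electron carriers with assembly factors or of mitochondrial antioxidant defence. Probes without a symbol may read such genes.

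Markers of inflammation and of microglia and macrophages passed the unadjusted threshold on the same arrays, though none passed the adjusted one. Of 18 tested probes of 13 acute inflammation genes, 15 were called higher in HC against NC and 6 lower in HK against HC, beside 7.99% and 6.9% of all tested probes in either direction. Their mean log2 level over the list ran from -4.75 to -4.28 in NC, -4.67 to -4.33 in NK, -3.74 to -0.14 in HC and -4.40 to -2.41 in HK. Of 8 probes of 4 microglia and macrophage genes (CD14, ITGAM, ITGB2 and LYZ), 5 were called higher in HC against NC and 1 lower in HK against HC, with mean levels of -4.02 to -3.39 in NC, -4.09 to -3.06 in NK, -3.21 to -1.22 in HC and -3.78 to -2.05 in HK. Their part in the differences of SLC2A3, LDHA and the carriers was not tested. In HC against NC, 0 of 7 astrocyte probes, 0 of 4 blood probes, 0 of 9 anterior pituitary probes, 0 of 17 hypothalamic peptide probes and the single choroid plexus probe were called, and 1 of 5 endothelial probes was, lower (KDR). The 4 blood probes (AHSP and HBB) had a median difference of 0.87 in HC against NC and -0.44 in HK against HC. Their mean level ran from -1.57 to -0.40 for NC, and the HC arrays lay on both sides of that range, the lowest at -2.42. Their part in the results was not tested.

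Probes close to the rule but outside it were chosen after their values were seen. LOC780442, described as subunit D of succinate dehydrogenase (complex II) and kept by RefSeq as a locus apart from SDHD, had levels from 1.04 (HC4) to 1.45 (HK4). It differed by -0.06 in HC against NC (SE 0.10, adjusted p = 0.893) and by 0.13 in HK against HC (SE 0.09, adjusted p = 0.786). A pair of probes on a sequence tag bore the array name of ATP5MC1, LOC443410, without its description. They had residual SDs of 0.523 and 0.542, where those of the ATP5MC1 probes were 0.087 and 0.135, and differed by -0.17 and -0.32 in HK against HC (SE 0.33 and 0.34).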

How the data were processed

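RNA from 16 fetal hypothalami (NC, NK, HC and HK, as grouped by the labels) was amplified, labelled with cyanine 3 and put on Agilent sheep arrays, 1 color each. Feature Extraction wrote the deposited intensity values, with background subtracted by the software and no normalization between arrays. The file headers give 10.1.1.1 as the version of its grid placement, whereas the paper names an earlier version of the software. The authors also deposited log2 values of the same arrays. Their columns had medians from 8.473 to 8.475, their method is not given in the sources used here, and they were used as an alternative.

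Spots marked as outliers (0.0801%) and control spots were left out, saturated spots were kept, and no member spot was marked as an outlier. Log2 of the processed intensity minus the array's 75th percentile (1256 to 1609) was averaged over the spots of a probe. Probes entered the tests if a share of at least 0.5 of their spots exceeded background by the scanner's criterion on no fewer than 3 arrays. On single arrays 71.7% to 80.6% of probes did so. Depth has no meaning for arrays, and their number limits the precision. The log2 differences were tested in R 4.3.3 with limma 3.58.1 (4 groups, 16 arrays, 13.7 total degrees of freedom, two-sided) and called at an unadjusted p under 0.05, as the study did, with Benjamini-Hochberg adjustment over all 12249 tested probes beside it. The procedure was tested on simulated data. Replicates were separate fetuses. The paper describes most of the fetuses as twins, and each pregnancy was assigned to normoxia or hypoxia at random. Littermates could not be recognised from the labels and were treated as unrelated, so the arrays may stem from fewer pregnancies than fetuses.

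Of 750 RefSeq accessions on the probes, 726 were named through a table of RefSeq genes (assembly ARS-UI_Ramb_v3.0), as were all 5 on member probes. Elsewhere the array's own names were kept, which can be old. The files name no genome build, so no coordinates are given. The members, the gene lists and the tests were chosen with earlier results of these data known. The rule for values in the text named every member called in a comparison, the brightest probe of each complex and the agreement of a gene's probes. As none was called, further members were given in full. The refits of genes outside the members were added after seeing the data. Alternatives were 3 other scalings, other filters, saturated spots left out, slide or replicate number as a block, only the groups compared, 1 probe per gene, the adjusted threshold and leaving out each array.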

Additional observations from a re-analysis of the deposited data

Results flagged for a closer look

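In groups of 4 or 5 arrays, a value is listed here when the gap to its nearest neighbour takes up more of the group's range than Dixon's 95% critical value allows. Of 60 such tests 3 met this, 2 of them among 27 on respiratory chain probes, and chance flags about 1 in 20 groups. NDUFA12 in HC2 was 2.75, with a gap of 0.756 of the range of the HC arrays below the next. Probe 1 of ATP5MC1 in HK1 was 5.79, with a gap of 0.844 of the HK range above the next, but 2 of the other HK arrays were saturated at this probe, so its rank among them is uncertain. LDHA at probe 1 in HK2 was 2.50, with a gap of 0.902 of the HK range above the next.

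The ketamine difference after hypoxia and that after normoxia differed at the unadjusted threshold for 2 mitochondrial carriers and for none of the 9 respiratory chain probes, where 3.85% of all tested probes were called. For SLC25A26 the interaction was 0.35 (limma, adjusted p = 0.992), and 0.26 without NC2, when it was not called. For SLC25A4 it was 0.34 (limma, adjusted p = 0.992). It was 0.22 with normexp, 0.19 on the deposited values, 0.31 without NC2, 0.30 without NC3 and 0.31 without HK3, and was not called in any of these.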

How the results depend on the processing

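No respiratory chain probe was called under any of the 27 alternatives, with 2 exceptions in HK against HC: 1 probe (ATP5MC2) on the deposited log2 values and 2 (both of ATP5MC1) without HC1. Leaving out each array gave from 0 to 2 called members there and 0 in the other comparisons. Of 1366 refitted member differences 3 were called, no called difference changed sign, and 112 that were not called did. The median difference of the members moved by less than the spread between replicates (0.094) throughout: from -0.09 to -0.01 in HC against NC and from 0.06 to 0.14 in HK against HC. With the replicate number as a replicate block 0 members were called in every comparison. The numbers were not taken to pair the samples, since pairing required a correlation over 0.1 in every same-numbered pair, and only 15 of 21 had one (range -0.06 to 0.35, median 0.224), with 9 of 16 arrays correlating best with their own number. Arrays of different groups on the same slide had a similar median correlation (0.217), and those on different slides one of -0.185. When only the groups compared were fitted, the calls of LDHA in HC against NC (0.60 and 0.61), of SLC2A3 (-0.55 and -0.50) and SLC25A4 (0.20) in HK against HC and of VDAC1 in HK against NK (0.24) were lost, and with the replicate block that of SLC25A26 in HK against NK (0.23). Leaving out saturated spots removed probe 1 of ATP5MC1 from comparisons with NC and probe 2 from those with NK. The number of arrays, the saturation of ATP5MC1 and the dim signal of COX5A limit these results.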
